A study of Mus musculus with 30 samples.

Results

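Microglia that had repopulated the brain after depletion were compared between the offspring of dams given poly(I:C) (MIA + MG-REP) and the offspring of dams given saline (Saline + MG-REP). The comparison used 6 of the 30 libraries of the series, 3 in each group, and 14225 transcripts of 13483 genes, each measured in TPM, its share of the transcripts of a library. The libraries were chosen by their labels. Poly(I:C) is a synthetic double-stranded RNA that mimics a viral infection, and maternal immune activation (MIA) is the response of the pregnant dam to it.

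All animals were C57BL/6J mice at postnatal day 60 (P60), and cells were taken from the whole brain with magnetic beads against CD11b, a surface protein that microglia share with other myeloid cells. Both MG-REP groups had received PLX5622, a drug that blocks the CSF1 receptor on which microglia depend for survival, in the chow after weaning, and then control chow during which new microglia filled the brain. Each library was made from a single brain. The study describes both sexes, and the labels name neither sex nor litter. The Saline + CTRL and MIA + CTRL groups at P60, with 3 libraries each, had control chow throughout and are given beside the comparison. Because nothing in the labels ties the libraries to separate litters, the p-values measure spread between libraries and not between litters. For the p-values of genes, that spread was estimated within the 10 groups of all 30 libraries, and not from the repopulated libraries alone. Some of these were pools, since the study pooled the brains of a litter at E17 and 3 brains at P7.

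Microglia are the resident macrophages of the brain. In the undisturbed adult brain they divide rarely and carry a homeostatic program that includes the nucleotide receptor *P2ry12*, the fractalkine receptor *Cx3cr1* and the transcription factor *Sall1*. After depletion the remaining cells divide and regain this program over weeks, while injury and disease bring out another program with genes such as *Apoe* and *Gpnmb*, known as the disease-associated or neurodegenerative phenotype (DAM/MGnD).

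Of the 6 repopulated libraries, 1 stood apart. Saline + MG-REP library 1 correlated with the other libraries of its group at 0.968 and 0.965 (Pearson's r of log2(TPM + 1) across transcripts, which are not independent replicates), against 0.989 between those and 0.989 to 0.992 among the MIA + MG-REP libraries. It differed by over 2-fold from libraries 2 and 3 in 1938 and 2196 transcripts, where these differed from each other in 232. Saline + MG-REP library 2 had the highest summed level of 15 markers of monocytes and neutrophils, 5667 TPM against 96.2 and 392 TPM in libraries 1 and 3 and 547 to 992 TPM in the MIA + MG-REP libraries. The reads on transcripts of known length were estimated at 9350000 to 10810000 per library, which is not the number of reads sequenced. *Xist*, the RNA of the inactive X chromosome, was at 165, 169 and 161 TPM in Saline + MG-REP and 174, 163 and 159 TPM in MIA + MG-REP, and the 4 Y-linked genes measured were at 0.41 TPM or below in all 6. In each control-chow group, 2 of 3 libraries held Y-linked transcripts, and the part of sex in values set across chow groups was not tested.

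The summed level of 10 microglial markers was 27371 to 30487 TPM in the Saline + MG-REP libraries and 41190 to 45743 TPM in the MIA + MG-REP libraries. The share of microglial markers in the TPM of all cell markers was 78.1% ± 7.72 (SD, n = 3) and 84.7% ± 2.25 (SD, n = 3), a difference that did not exceed the spread between libraries (two-sided exact permutation test, p = 0.3, where 3 libraries against 3 allow no p below 0.1). Saline + MG-REP library 1 held the lowest summed level of the neuronal, astrocytic, oligodendroglial, endothelial and choroid plexus markers of all 6 libraries. Its summed level was 90.1 TPM for neuronal markers, against 228 to 402 TPM in the other 5, and 518 TPM for endothelial markers, against 850 to 2080 TPM. In bulk RNA, fewer cells of a type and less RNA per cell cannot be told apart.

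**Figure D1:**
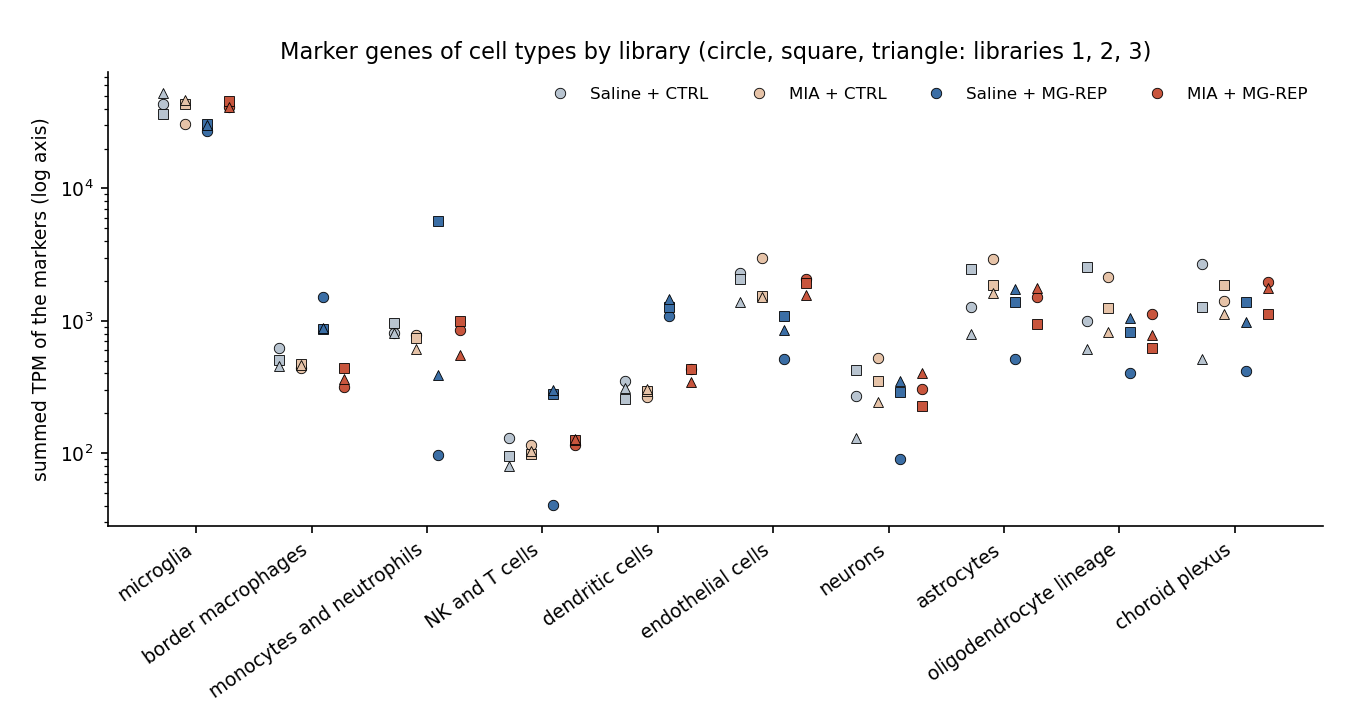
Summed TPM of the marker genes of 10 cell types (log axis) in the 12 libraries at P60, with 1 point per library. Saline + MG-REP library 1 (blue circle) lies lowest for neurons at 90.1 TPM and for endothelial cells at 518 TPM, and library 2 (blue square) stands out for monocytes and neutrophils at 5667 TPM.

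The question put to the data was whether microglia that grew back in MIA offspring differed from those that grew back in saline offspring. They differed widely. At an adjusted p under 0.05, called from here on, 1553 transcripts were higher and 1571 lower in MIA + MG-REP, which is 22.0% of the 14225 tested (10.9% higher and 11.0% lower). Of these, 463 were at least 2-fold higher and 576 at least 2-fold lower. The 3 libraries of one group did not overlap those of the other for 42.7% of all transcripts, and for 3088 of the 3124 called. A fold change is the difference of mean log2(TPM + 1), MIA + MG-REP minus Saline + MG-REP, with its standard error, and its median over all transcripts was 0.12.

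Without Saline + MG-REP library 1, 1731 transcripts were called (12.2%), with 4.93% of all transcripts higher and 7.24% lower. Of them, 1683 were among the 3124, all in the same direction. All 3124 kept their direction, and 79.3% of those called higher and 85.7% of those called lower had their most distant saline value in that library. Counts of list members are therefore given with all 6 libraries and again without it.

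**Figure D2:**
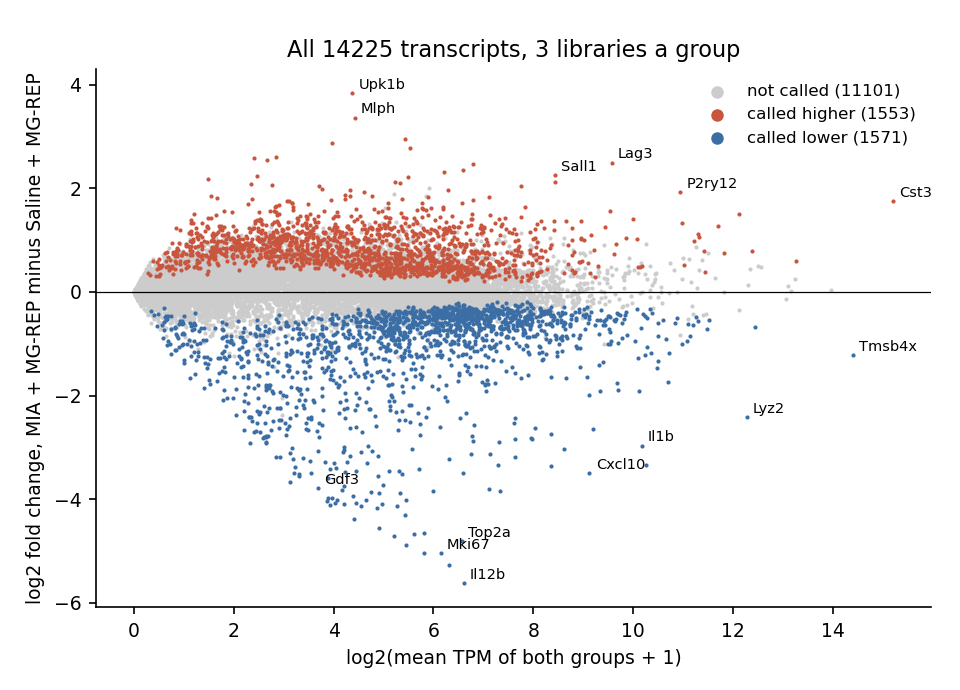
Log2 fold change (MIA + MG-REP minus Saline + MG-REP) of each of 14225 transcripts against the log2 of its mean level in TPM over both groups, with 1553 called higher in red and 1571 called lower in blue. The falls reach further than the rises, down to -5.61 for *Il12b* against 3.83 for *Upk1b*.

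The 12 largest falls were those of *Il12b*, *Ube2c*, *Ccnb2*, *Mki67*, *Cdca3*, *Top2a*, *2810417H13Rik*, *Cdca8*, *Ccna2*, *Pbk*, *Spc24* and *Rrm2*, and all but *Il12b* are genes of cell division. The 12 largest rises were those of *Upk1b*, *Mlph*, *Gp9*, *Rnu11*, *Atp8a2*, *Csmd3*, *Cd209f*, *Gpr165*, *Lag3*, *Ecscr*, *Gm10790* and *P3h2*. Both sets were limited to called transcripts whose libraries did not overlap and whose higher group had a mean of at least 5 TPM.

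Transcripts of cell division were far lower in MIA + MG-REP than in Saline + MG-REP. All 24 measured members of the mitosis list were called lower, with a median log2 fold change of -3.79 and a range of -5.28 to -1.59, and all 24 were called lower without Saline + MG-REP library 1 too (median -3.34). The summed level of the list was 2541, 1033 and 928 TPM in the Saline + MG-REP libraries and 74.1, 62.4 and 63.5 TPM in the MIA + MG-REP libraries. Library 1 held the highest level, and the other saline libraries lay far above every MIA library.

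*Mki67*, the gene of the protein that marks cycling cells in tissue stains, lies at chr7:135689784-135716450 (GRCm38). It was at 234, 93.9 and 82.9 TPM in Saline + MG-REP and 2.5, 3.16 and 2.65 TPM in MIA + MG-REP (log2 fold change -5.04 ± 0.24, adjusted p = 7.8e-13). In the control-chow groups its mean was 3.27 TPM in Saline + CTRL and 2.85 TPM in MIA + CTRL, so that the MIA + MG-REP libraries lay at that level and the Saline + MG-REP libraries far above it. *Top2a*, the topoisomerase that untangles chromosomes before they separate, was at 319.7, 119.7 and 110.2 TPM in Saline + MG-REP and 5.63, 4.88 and 4.09 TPM in MIA + MG-REP (log2 fold change -4.80 ± 0.28, adjusted p = 2.5e-11). *Ube2c*, which with the anaphase-promoting complex marks cyclins for destruction, was at 261, 116 and 85.8 TPM in Saline + MG-REP and 3.38, 2.37 and 2.08 TPM in MIA + MG-REP. The cyclins *Ccnb2* (-5.05) and *Ccna2* (-4.65), the kinase *Cdk1* (-3.45), the spindle checkpoint kinase *Bub1b* (-3.88), *Cdca3* (-4.89), the centromere protein gene *Cdca8* (-4.67), the kinetochore gene *Spc24* (-4.38) and the mitotic kinase *Pbk* (-4.56) were lower by log2 amounts of the same order.

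The machinery that copies DNA followed with smaller differences. Of 27 transcripts on the DNA replication list, 25 were called lower and none higher, with a median of -1.53, and 23 were called lower without Saline + MG-REP library 1. *Rrm2*, the regulated subunit of the ribonucleotide reductase that makes DNA building blocks, was at 141, 58.2 and 46.2 TPM in Saline + MG-REP and 2.29, 2.58 and 3.34 TPM in MIA + MG-REP (log2 fold change -4.31 ± 0.32, adjusted p = 5.7e-10). Its partner subunit *Rrm1*, which is also present outside S phase, was at 180.1, 75.9 and 69.97 TPM in Saline + MG-REP and 26.6, 25.9 and 25.6 TPM in MIA + MG-REP (-1.88 ± 0.20). *Mcm2*, part of the helicase that opens replication origins, was at 136, 51.2 and 48.7 TPM in Saline + MG-REP and 11.1, 11.9 and 11.3 TPM in MIA + MG-REP. *Pole*, the catalytic subunit of a replicative polymerase, was at 24.2, 8.9 and 8.79 TPM in Saline + MG-REP and 1.29, 1.06 and 1.39 TPM in MIA + MG-REP. The gene listed as *2810417H13Rik*, which encodes a factor that binds the replication clamp, fell from 134, 37.98 and 40.1 TPM to 1.43, 1.33 and 1.12 TPM. In each of these genes the lowest saline library lay above the highest MIA library.

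The promoters of the mitotic genes shared short sequences that the comparison did not use. In cycling cells these genes are known to be driven through the CHR element (letters TTTGAA), often with CCAAT boxes nearby. RefSeq promoters (GRCm38.p6, 250 bases before to 50 after the most upstream start of a gene) were held for 22 of the 24 mitosis genes, and 17 of them (77.3%) contained TTTGAA on either strand, against 11.99% of the 10476 promoters of all tested genes. In 8 of the 22 (36.4%) the letters lay within the 250 bases before the start, against 10.7% of all, and in the other 9 they were only across or after the start. CCAAT was in 16 of the 22 (72.7%), against 38.2% of all. Of the 20 DNA replication genes with a promoter, 2 held TTTGAA and 11 held CCAAT. These shares describe the letters in the window and were not tested.

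The promoters of 4 of these genes are shown, because each holds both elements within 150 bases before the start and overlaps no annotated gene. They are *Ube2c* at chr2:164769779-164769928 on the plus strand, *Cdk1* at chr10:69352913-69353062 on the minus strand, *Cdc20* (log2 fold change -3.73) at chr4:118437344-118437493 on the minus strand and *Kif11* (-4.09) at chr19:37376232-37376381 on the plus strand, in GRCm38.p6. Each is written 5′ to 3′ towards the start of the gene, with capitals for both elements and their reverse complements.
Ube2c: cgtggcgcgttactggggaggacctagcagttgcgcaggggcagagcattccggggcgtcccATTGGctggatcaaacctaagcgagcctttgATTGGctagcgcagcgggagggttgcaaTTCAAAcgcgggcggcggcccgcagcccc
Cdk1: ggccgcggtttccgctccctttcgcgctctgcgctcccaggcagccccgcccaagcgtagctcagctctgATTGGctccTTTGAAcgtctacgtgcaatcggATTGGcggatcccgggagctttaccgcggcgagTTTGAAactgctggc
Cdc20: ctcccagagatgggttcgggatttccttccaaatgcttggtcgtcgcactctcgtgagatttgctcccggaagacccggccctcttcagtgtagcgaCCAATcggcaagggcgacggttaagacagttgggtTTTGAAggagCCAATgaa
Kif11: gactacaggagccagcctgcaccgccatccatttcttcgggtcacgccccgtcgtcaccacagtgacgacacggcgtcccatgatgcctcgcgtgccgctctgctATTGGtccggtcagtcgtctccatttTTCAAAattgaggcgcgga

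Over the whole comparison the same letters differed less. TTTGAA was in 16.5% of the 1241 promoters of genes called lower, which include the mitotic genes, and in 12.5% of the 1179 of genes called higher. CCAAT was in 40.5% and 37.2%. The letters GAGGAAG, a core of sites of the myeloid factor PU.1, were in 13.9% of those called lower, 14.6% of those called higher and 13.7% of all. The AP-1 letters TGANTCA were in 5.88%, 4.16% and 5.18%, and the TATA letters TATAAA in 8.54%, 7.12% and 7.38%. None of the 5 sets of letters contains another.

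Transcripts that interferons induce were lower in MIA + MG-REP. Of 25 interferon-stimulated transcripts, 16 were called lower and none higher, with a median of -1.30, and without Saline + MG-REP library 1 the count was 23 (median -1.61). The summed level of the list was 3918, 4857 and 5531 TPM in Saline + MG-REP and 1523, 1489 and 1162 TPM in MIA + MG-REP, so that library 1 lay nearest to the MIA libraries here, in contrast to the mitotic genes. *Ifi27l2a* was at 402, 438 and 489.5 TPM in Saline + MG-REP and 62.2, 69.7 and 52.3 TPM in MIA + MG-REP (log2 fold change -2.84 ± 0.21, adjusted p = 4.4e-10). *Bst2*, a tether that holds enveloped viruses to the cell, was at 1072, 1252 and 1442 TPM in Saline + MG-REP and 403, 397 and 317 TPM in MIA + MG-REP (-1.75 ± 0.16). *Cxcl10*, a chemokine that draws T cells, was at 1363, 828 and 886 TPM in Saline + MG-REP and 99.7, 103 and 64.8 TPM in MIA + MG-REP (log2 fold change -3.50 ± 0.32, adjusted p = 1.6e-08). The DNA sensor family member *Ifi204* was at 136, 209 and 264 TPM in Saline + MG-REP and 60.2, 60.3 and 50.5 TPM in MIA + MG-REP. In all 4 the MIA + MG-REP libraries lay below every Saline + MG-REP library and above both control-chow means. Those means were 23.8 TPM in Saline + CTRL and 24.6 TPM in MIA + CTRL for *Ifi27l2a* and 51.5 TPM in Saline + CTRL and 39.8 TPM in MIA + CTRL for *Cxcl10*. *Stat2*, a subunit of the factor that carries the interferon signal to the nucleus, was not called with all 6 libraries (log2 fold change -0.63 ± 0.23, adjusted p = 0.052) and was called without library 1 (log2 fold change -0.98, adjusted p = 0.0018). On the list of MHC class I and peptide loading genes, 1 of 12 was called lower, *Psmb8* of the immunoproteasome (-0.62), and *Nlrc5*, the activator of this pathway, passed without that library (log2 fold change -1.12, adjusted p = 0.043). *Psmb8* (-0.53) was no longer called without library 1 (log2 fold change without it).

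Inflammatory cytokines and chemokines were among the largest differences. Of 22 cytokine transcripts, 10 were called lower and 4 higher (8 and 2 without Saline + MG-REP library 1). *Il12b*, the shared p40 subunit of interleukins 12 and 23, was at 314, 127 and 128 TPM in Saline + MG-REP and 3.98, 2.35 and 1.65 TPM in MIA + MG-REP, the largest fall of all (log2 fold change -5.61 ± 0.51, adjusted p = 1.4e-08), and its control-chow means were 0.86 TPM in Saline + CTRL and 1.16 TPM in MIA + CTRL. *Il23a*, the other subunit of interleukin 23, was at 25.9, 8.01 and 11.1 TPM in Saline + MG-REP and 1.74, 0.72 and 0.18 TPM in MIA + MG-REP (-3.01 ± 0.36). *Il1b*, a pyrogenic cytokine, was at 2228, 2160 and 1744 TPM in Saline + MG-REP and 282, 281 and 219 TPM in MIA + MG-REP (log2 fold change -2.97 ± 0.32, adjusted p = 2.7e-07). *Areg*, an epidermal growth factor receptor ligand, was at 12.98, 8.07 and 7.43 TPM in Saline + MG-REP and 0.22, 0.4 and 0.8 TPM in MIA + MG-REP. In all 4 the lowest saline library lay above the highest MIA library, whichever libraries were kept. The 4 called higher were *Il27* (1.71), *Il16* (1.00), *Ltb* (0.94) and *Tgfb2* (1.17). Without library 1 the threshold was missed by *Ltb* (0.60) and *Tgfb2* (0.74), with the log2 fold change of that fit in parentheses.

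Of 22 chemokine transcripts, 7 were called lower and 3 higher (9 and 1 without Saline + MG-REP library 1), with a median of -0.66. The neutrophil-attracting chemokines led. *Cxcl1* was at 502, 196 and 209.6 TPM in Saline + MG-REP and 17.1, 17.8 and 19.4 TPM in MIA + MG-REP (log2 fold change -3.85 ± 0.34, adjusted p = 8.1e-09) and *Cxcl2* at 3665, 1506 and 1565 TPM in Saline + MG-REP and 197, 241 and 171 TPM in MIA + MG-REP (-3.34 ± 0.33). *Cxcl3* was at 26.5, 9.09 and 10.5 TPM in Saline + MG-REP and 0.26, 0.24 and 0 TPM in MIA + MG-REP. Neither group overlapped the other in any of them. *Cxcl1*, *Cxcl2* and *Cxcl3* are close paralogs, and reads may be split among them. Those called higher were *Ccl24* (1.33), *Ccl6* (0.91) and *Ccl9* (0.71). Only with library 1 were *Ccl6* (0.78) and *Ccl9* (0.68) called (log2 fold change without it in parentheses).

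The genes that sense microbes and carry the signal showed no common direction. Among 24 toll-like and Fc receptor transcripts, 3 were called lower and 2 higher, with and without Saline + MG-REP library 1. *Tlr2*, a receptor for bacterial lipoproteins, was at 1490, 1245 and 1190 TPM in Saline + MG-REP and 351, 391 and 308 TPM in MIA + MG-REP (-1.90 ± 0.23). Its co-receptor *Cd14* was at 2521, 1826 and 1976 TPM in Saline + MG-REP and 761, 792 and 704 TPM in MIA + MG-REP (-1.47 ± 0.27). *Tlr8* was at 1.23, 0.97 and 1.19 TPM in Saline + MG-REP and 0.1, 0.1 and 0.1 TPM in MIA + MG-REP. *Tlr5*, the flagellin receptor, went the other way, from 5.08, 4.34 and 3.08 TPM to 21.4, 18.8 and 20.1 TPM (2.05 ± 0.23), as did the double-stranded RNA receptor *Tlr3* (0.75). Among 22 NF-kB transcripts, 4 were called lower, *Tnip3* (-2.14), *Rel* (-0.77), *Sod2* (-0.50) and *Nfkbid* (-0.63), and 1 higher, the kinase *Map3k14* (0.74). Without library 1 the counts were 2 and 1. *Sod2* (-0.41) and *Nfkbid* (-0.62) were no longer called without library 1 (log2 fold change without it). With all 6 libraries the called share of each of these 2 lists was near that of all transcripts, 22.0%. The share of all transcripts without library 1 was 12.2%.

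**Figure D3:**
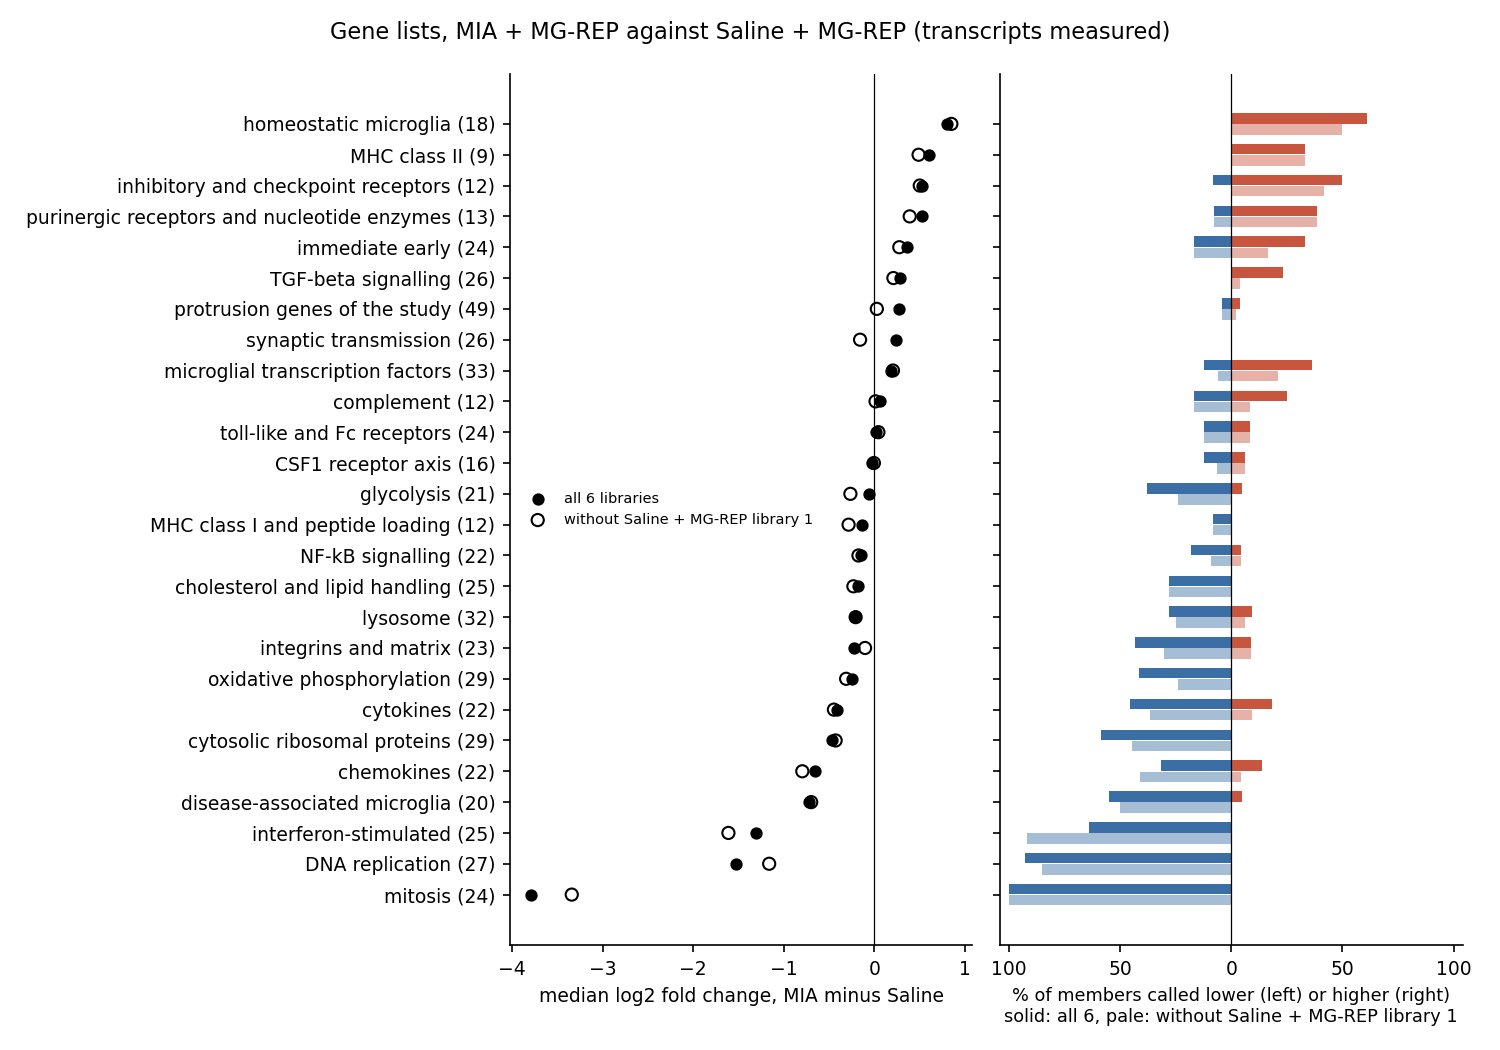
Left, median log2 fold change of the measured transcripts of 26 gene lists with all 6 libraries (filled) and without Saline + MG-REP library 1 (open); right, the percentage of members called lower (blue) or higher (red). Mitosis lies at -3.79 with all members called lower, and homeostatic microglia at 0.81 with 11 of 18 called higher.

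Part of the genes of the disease-associated phenotype were lower in MIA + MG-REP. Of 20 transcripts, 11 were called lower and 1 higher (10 and 0 without Saline + MG-REP library 1), with a median of -0.72, and the one called higher was *Ccl6*. The summed level of the list overlapped between the groups, at 25781, 30223 and 29002 TPM in Saline + MG-REP and 23660, 26512 and 23547 TPM in MIA + MG-REP. Those called lower included *Il1b*, given above, *Gpnmb*, *Cstb*, *Apoe*, *Spp1* and *Itgax*. *Gpnmb*, a membrane glycoprotein of lipid-laden macrophages, was at 25.04, 20.4 and 16.7 TPM in Saline + MG-REP and 6.01, 4.32 and 3.07 TPM in MIA + MG-REP (-2.01 ± 0.33). *Cstb*, an inhibitor of cathepsins, was at 384, 279.9 and 287 TPM in Saline + MG-REP and 148, 160.3 and 145 TPM in MIA + MG-REP (-1.05 ± 0.17). The integrin *Itgax* was at 88.5, 101 and 76.8 TPM in Saline + MG-REP and 49.7, 54.8 and 44.3 TPM in MIA + MG-REP (-0.82 ± 0.21). *Apoe*, the lipid carrier, was listed under 3 transcripts, which are 3 of the 11 called lower, the one with the smallest p at 9.81, 7.07 and 9.18 TPM in Saline + MG-REP and 1.76, 1.23 and 2.44 TPM in MIA + MG-REP (-1.80 ± 0.31). How reads were shared among the 3 bears on such low values, and was not tested. *Spp1*, which encodes osteopontin, was listed under 1 transcript near the lower end of the scale. It was at 2.05, 1.26 and 0.9 TPM in Saline + MG-REP and 0.17, 0.32 and 0.32 TPM in MIA + MG-REP. *Spp1* (-0.71) was no longer called without library 1 (log2 fold change without it).

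Of the 24 genes on the disease-associated list, 18 were measured. *Axl*, *Clec7a*, *Lgals3*, *Igf1*, *Fabp5* and *Fth1* had no value. Several defining genes of the phenotype that had a value did not pass in the transcripts listed. *Trem2* was listed under 1 transcript at a low level, and any other transcript of it had no value. *Trem2*, the lipid receptor that is needed for this phenotype in mouse models, was at 7.09, 6.89 and 7.88 TPM in Saline + MG-REP and 10.3, 12.2 and 10.2 TPM in MIA + MG-REP (log2 fold change 0.52 ± 0.27, adjusted p = 0.19). Its adaptor *Tyrobp* was at 4960, 4988 and 4942 TPM in Saline + MG-REP and 3884, 4044 and 3747 TPM in MIA + MG-REP (log2 fold change -0.35 ± 0.20, adjusted p = 0.25). The cathepsin *Ctsd* was at 13476, 17319 and 16826 TPM in Saline + MG-REP and 15215, 17803 and 15531 TPM in MIA + MG-REP (log2 fold change 0.03 ± 0.22, adjusted p = 0.94), with overlapping groups. *Lyz2*, the lysozyme gene of myeloid cells and one of the 8 most abundant called transcripts, was at 9673, 7945 and 7456 TPM in Saline + MG-REP and 1546, 1732 and 1388 TPM in MIA + MG-REP (log2 fold change -2.42 ± 0.24, adjusted p = 7.6e-08), against 1109 TPM in Saline + CTRL and 944 TPM in MIA + CTRL.

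Lipid storage, adhesion and matrix genes showed falls in part of each list. On the list of cholesterol and lipid handling, 7 of 25 transcripts were called lower and none higher, and the count was 7 without Saline + MG-REP library 1. Of the 7, 3 are *Apoe* transcripts. *Ch25h*, which makes a hydroxylated cholesterol with antiviral activity, was at 299.9, 163 and 119 TPM in Saline + MG-REP and 21.1, 17.6 and 20.1 TPM in MIA + MG-REP. The lipid droplet coat gene *Plin2* (-1.79 ± 0.21) and the cholesterol esterifying enzyme *Soat1* (-0.53 ± 0.11) were lower by less. Of 23 integrin and matrix transcripts, 10 were called lower and 2 higher (7 and 2 without that library). *Lgals1*, which encodes galectin-1, was at 1149, 491 and 471 TPM in Saline + MG-REP and 77.4, 82.03 and 75.5 TPM in MIA + MG-REP (log2 fold change -3.02 ± 0.24, adjusted p = 1.9e-09). The integrin subunit *Itga4*, through which blood monocytes bind vessel walls, was at 79.5, 58.1 and 60.6 TPM in Saline + MG-REP and 10.8, 12.3 and 9.79 TPM in MIA + MG-REP (-2.48 ± 0.21). In both genes the groups were well apart, with library 1 the highest. *Plau*, the urokinase that activates plasmin, was at 1470, 769 and 488 TPM in Saline + MG-REP and 198, 240.4 and 180.3 TPM in MIA + MG-REP. Those called higher were the integrin subunit *Itgb3*, at 8.15, 14.4 and 10.3 TPM in Saline + MG-REP and 38.3, 45.98 and 40.1 TPM in MIA + MG-REP, and the protease *Adamts1* (0.93).

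Lysosomal genes did not share a direction. Of 32 transcripts, 9 were called lower and 3 higher (8 and 2 without Saline + MG-REP library 1), with a median of -0.21. The protease *Ctsc* was at 651, 629 and 566 TPM in Saline + MG-REP and 192, 229.8 and 164 TPM in MIA + MG-REP (-1.67 ± 0.18). The glucuronidase *Gusb* was at 1270, 796 and 739 TPM in Saline + MG-REP and 330.3, 362 and 337 TPM in MIA + MG-REP (-1.40 ± 0.19). Those called higher included the cathepsins *Ctsl* (1.03) and *Ctsf* (0.80). Of 12 complement transcripts, 2 were called lower, properdin (*Cfp*, -2.77) and the receptor *C3ar1* (-0.56), and 3 higher, among them the inhibitor *Serping1* (0.97) and the protease *C2* (0.84). *Cfp* stabilizes the convertase of the alternative pathway and was at 332, 133 and 113 TPM in Saline + MG-REP and 22.9, 28.9 and 21.4 TPM in MIA + MG-REP. The groups did not overlap for *Cfp*, and library 1 was the highest. Without library 1, 2 complement transcripts were called lower and 1 higher. Only with library 1 were *C3ar1* (-0.52), *Serping1* (0.78) and *C2* (0.49) called (log2 fold change without it in parentheses).

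Homeostatic genes were higher in MIA + MG-REP. Of 18 transcripts, 11 were called higher and none lower, with a median of 0.81, and 9 were called higher without Saline + MG-REP library 1 (median 0.85). *P2ry12*, the receptor by which microglial processes follow ADP, lies at chr3:59216271-59262985 and was at 609, 949.8 and 926 TPM in Saline + MG-REP and 2903, 3404 and 3019 TPM in MIA + MG-REP (log2 fold change 1.93 ± 0.24, adjusted p = 1.4e-06). Its control-chow means were 3974 TPM in Saline + CTRL and 3599 TPM in MIA + CTRL, above both repopulated groups, with the Saline + MG-REP libraries the further away. Its neighbour and relative *P2ry13* was at 357, 402 and 365 TPM in Saline + MG-REP and 1076, 1212 and 1060 TPM in MIA + MG-REP (1.57 ± 0.25). *Sall1*, a transcription factor that in the brain is largely particular to microglia, was at 53.6, 169 and 175 TPM in Saline + MG-REP and 542, 600.4 and 538 TPM in MIA + MG-REP (log2 fold change 2.25 ± 0.29, adjusted p = 4.0e-06), and library 1 was the lowest of the 6. The secreted protease inhibitor *Cst3*, the called transcript with the highest mean level, was at 10381, 21221 and 22744 TPM in Saline + MG-REP and 56143, 59722 and 57574 TPM in MIA + MG-REP (1.76 ± 0.26).

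*Tmem119*, a membrane protein used to stain microglia, was at 1720, 1520 and 1522 TPM in Saline + MG-REP and 2933, 3412 and 3109 TPM in MIA + MG-REP (0.99 ± 0.22). *Cx3cr1* was at 1539, 1614 and 1580 TPM in Saline + MG-REP and 3219, 3728 and 3356 TPM in MIA + MG-REP (1.12 ± 0.19). In both genes the 3 libraries of a group lay close together and library 1 did not stand out. The cytokine *Tgfb1*, on which the microglial program depends, was at 581, 462 and 415 TPM in Saline + MG-REP and 479, 555 and 484 TPM in MIA + MG-REP (log2 fold change 0.07 ± 0.16, adjusted p = 0.81). *Mef2a* was at 0.68, 0.72 and 0.44 TPM in Saline + MG-REP and 1.11, 0.99 and 0.77 TPM in MIA + MG-REP (log2 fold change 0.28 ± 0.15, adjusted p = 0.19), a level near 1 TPM at which few reads were counted. *Csf1r*, the target of the depleting drug, was at 4498, 4948 and 4904 TPM in Saline + MG-REP and 6357, 7273 and 6824 TPM in MIA + MG-REP, without overlap but short of the threshold (log2 fold change 0.51 ± 0.19, adjusted p = 0.059).

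**Figure D4:**
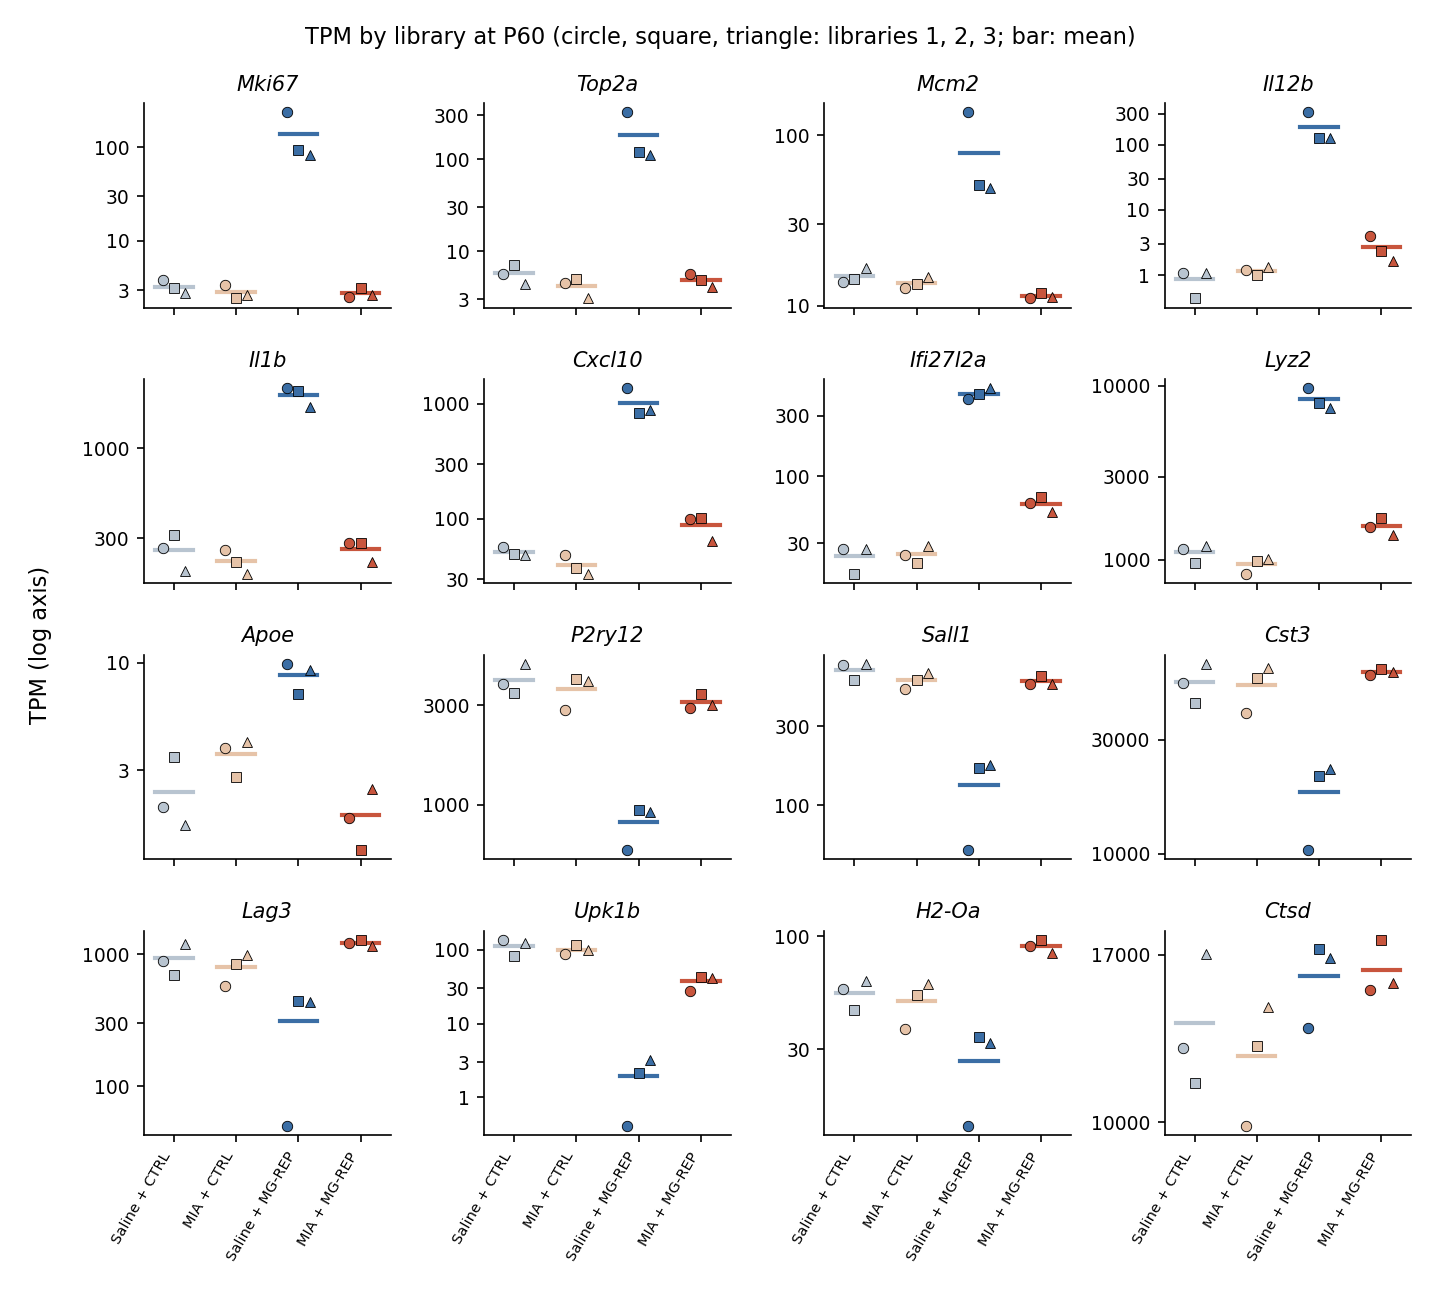
TPM (log axis) of 16 genes in each of the 12 libraries at P60, with 1 point per library and a bar for the group mean. In *Mki67*, *Top2a*, *Mcm2*, *Il1b* and *Sall1* the MIA + MG-REP libraries lie near the control-chow libraries and the Saline + MG-REP libraries apart; in *Ctsd* the groups overlap.

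The receptors and regulators around this program moved in part with it. Of 13 purinergic transcripts, 5 were called higher and 1 lower, with and without Saline + MG-REP library 1. The adenosine receptor *Adora3* was at 9.17, 19.5 and 20.2 TPM in Saline + MG-REP and 43.9, 54.8 and 49.6 TPM in MIA + MG-REP (1.61 ± 0.27). The one called lower was *Nt5e*, the ectoenzyme that makes adenosine from AMP, at 62.6, 21.5 and 18.6 TPM in Saline + MG-REP and 3.0, 0.96 and 2.85 TPM in MIA + MG-REP (-3.29 ± 0.39). Of 12 inhibitory and checkpoint receptor transcripts, 6 were called higher and 1 lower (5 and 0 without library 1). *Lag3*, an inhibitory receptor that binds MHC class II, was at 49.99, 443 and 435 TPM in Saline + MG-REP and 1212, 1276 and 1143 TPM in MIA + MG-REP (log2 fold change 2.50 ± 0.48, adjusted p = 5.1e-04), with library 1 far below the other saline libraries, and its log2 fold change was 1.46 without that library. The others called higher were *Cd80* (0.82), *Sirpa*, the receptor for the CD47 signal (0.83), *Siglecf* (1.24), *Cd200r1* (0.93) and *Cd86* (0.54), and *Pilra* was called lower (-1.15). *Cd86* (0.51) and *Pilra* (-0.89) were no longer called without library 1 (log2 fold change without it).

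Of 9 MHC class II transcripts, 3 were called higher and none lower, with and without Saline + MG-REP library 1. They were genes of the machinery that loads peptides, *H2-Oa*, *H2-Ob* (1.42) and *H2-DMb1* (0.89). *H2-Oa* was at 13.2, 34.3 and 32.1 TPM in Saline + MG-REP and 90.03, 96.2 and 83.5 TPM in MIA + MG-REP (1.83 ± 0.25). The presenting molecule gene *H2-Aa* was at 259, 418 and 261 TPM in Saline + MG-REP and 421, 539.9 and 441 TPM in MIA + MG-REP (log2 fold change 0.61 ± 0.30, adjusted p = 0.16). For *H2-Oa* the MIA + MG-REP libraries lay above both control-chow means, 54.9 TPM in Saline + CTRL and 50.3 TPM in MIA + CTRL. H2 genes are alike in sequence, and their levels are uncertain to that extent.

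Of 33 transcripts of microglial transcription factors, 12 were called higher and 4 lower (7 and 2 without Saline + MG-REP library 1). Besides *Sall1*, these included *Sall3*, which was at 22.9, 46.7 and 39.9 TPM in Saline + MG-REP and 91.1, 98.3 and 89.9 TPM in MIA + MG-REP. The 4 called lower were *Bcl6* (-0.98), *Nr4a1* (-1.06), *Tfec* (-1.10) and *Bhlhe40* (-1.08). On the TGF-beta list, 6 of 26 were called higher and none lower, beside 10.9% of all transcripts called higher. Without that library 1 was left, a share below the 4.93% of all transcripts called higher. *Smad3*, which carries the signal, was at 69.2, 73.8 and 70.3 TPM in Saline + MG-REP and 101, 113 and 108 TPM in MIA + MG-REP (0.59 ± 0.13). *Smad7*, its feedback inhibitor, was at 99.6, 155 and 135 TPM in Saline + MG-REP and 201, 268 and 196 TPM in MIA + MG-REP (0.78 ± 0.19). Of 16 transcripts of the CSF1 receptor axis, 1 was called higher and 2 were called lower, the GM-CSF receptor subunit *Csf2ra* (-1.09) and the adaptor *Dok2* (-1.57). Without library 1 the counts were 1 and 1. The shares of this axis called were near those of all transcripts, 22.0% with all 6 libraries and 12.2% without library 1. Without library 1 the threshold was missed by *Tfec* (-0.88), *Bhlhe40* (-0.95), *Smad7* (0.60) and *Dok2* (-1.03), with the log2 fold change of that fit in parentheses.

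Immediate early genes, which answer stimuli within minutes and also the handling of cells, were called higher for 8 of 24 transcripts and lower for 4 (4 and 4 without Saline + MG-REP library 1). *Rhob* was at 1705, 2712 and 2633 TPM in Saline + MG-REP and 6006, 7670 and 6018 TPM in MIA + MG-REP (1.5 ± 0.24). *Junb* was at 3165, 4519 and 4164 TPM in Saline + MG-REP and 6400, 8070 and 5938 TPM in MIA + MG-REP (0.79 ± 0.18), and *Ier5* at 512, 866 and 773 TPM in Saline + MG-REP and 1309, 1745 and 1272 TPM in MIA + MG-REP (1.03 ± 0.20). In these 3 genes library 1 was the lowest and no saline library reached a MIA library. *Fos* was at 1905, 3196 and 3125 TPM in Saline + MG-REP and 4370, 5148 and 3985 TPM in MIA + MG-REP (log2 fold change 0.75 ± 0.26, adjusted p = 0.039) and was not called without that library (adjusted p = 0.28). Those called lower were *Nr4a1*, the phosphatase *Dusp2* (-1.14) and both transcripts of *Egr3* (-0.69 for the one with the smaller p). The part of cell handling in these values was not tested.

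Among genes of protein synthesis and energy supply, the transcripts called lower differed by small amounts. Of 29 transcripts of cytosolic ribosomal proteins, 17 were called lower and none higher, with a median of -0.47, and 13 were called lower without Saline + MG-REP library 1. *Rps2* was at 744, 572 and 568 TPM in Saline + MG-REP and 291, 292 and 325 TPM in MIA + MG-REP (-1.04 ± 0.13), and *Rplp0* at 1276, 1014 and 1040 TPM in Saline + MG-REP and 559, 566 and 544 TPM in MIA + MG-REP (-0.99 ± 0.11). *Rpl18* (-0.84) and *Rpsa* (-0.96) differed alike. After quantile normalization 13 members were called lower and 1 higher. Ribosomal protein genes have many processed copies in the genome, and the counting of shared reads may affect their level. Of 29 transcripts of oxidative phosphorylation, 12 were called lower and none higher, with a median of -0.25, and 7 without library 1. *Cox5a*, a subunit of cytochrome c oxidase, was at 536, 360.0 and 383 TPM in Saline + MG-REP and 222, 199 and 244 TPM in MIA + MG-REP (-0.92 ± 0.15). *Sdhb* of succinate dehydrogenase was at 365, 313 and 309 TPM in Saline + MG-REP and 247, 226 and 264 TPM in MIA + MG-REP (-0.42 ± 0.08). Of 21 glycolytic transcripts, 8 were called lower and 1 higher (5 and 0 without that library), with a median of -0.06. Their summed level was higher in each MIA library than in any saline library, at 1942, 2097 and 1971 TPM in Saline + MG-REP and 2424, 2322 and 2192 TPM in MIA + MG-REP. A large part of that sum was *Slc2a1*, at 460.5, 741 and 633 TPM in Saline + MG-REP and 1315, 1314 and 1091 TPM in MIA + MG-REP. The sum therefore does not give the direction of the glycolytic enzymes. *Gapdh* (-1.22), *Gpi1* (-0.76) and *Pgam1* (-0.79) were among those called lower, and the glucose transporter gene *Slc2a1*, which endothelial cells also express, was called higher (1.04). *Slc2a1* (0.85) was no longer called without library 1 (log2 fold change without it).

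Among genes on no list, the largest rises included several that were near 0 TPM in Saline + MG-REP. *Upk1b*, a tetraspanin of the bladder lining, was at 0.41, 2.15 and 3.25 TPM in Saline + MG-REP and 27.7, 43.2 and 41.96 TPM in MIA + MG-REP (log2 fold change 3.83 ± 0.42, adjusted p = 2.7e-07), against 113 TPM in Saline + CTRL and 100.3 TPM in MIA + CTRL. *Mlph*, a linker of organelles to myosin, was at 0.8, 4.07 and 4.7 TPM in Saline + MG-REP and 32.1, 43.96 and 37.3 TPM in MIA + MG-REP (log2 fold change 3.37 ± 0.34, adjusted p = 8.1e-08), against 91.4 TPM in Saline + CTRL and 68.9 TPM in MIA + CTRL. The orphan receptor gene *Gpr165* was at 0.07, 1.19 and 1.54 TPM in Saline + MG-REP and 7.47, 10.04 and 11.5 TPM in MIA + MG-REP, against 93.1 TPM in Saline + CTRL and 88.97 TPM in MIA + CTRL. In these genes the MIA + MG-REP libraries lay between Saline + MG-REP and the control-chow groups. *Gp9*, a platelet glycoprotein subunit, was at 5.3, 10.7 and 11.1 TPM in Saline + MG-REP and 61.1, 76.4 and 86.4 TPM in MIA + MG-REP (2.96 ± 0.32). The lipid flippase gene *Atp8a2* was at 3.11, 18.6 and 17.8 TPM in Saline + MG-REP and 74.7, 79.1 and 79.4 TPM in MIA + MG-REP (2.77 ± 0.34, and 2.03 without Saline + MG-REP library 1). *Ecscr* was at 22.8, 41.2 and 36.95 TPM in Saline + MG-REP and 177, 199.9 and 183 TPM in MIA + MG-REP (2.48 ± 0.20). *Csmd3* (2.61), *P3h2* (2.32, and 1.65 without library 1) and *Gm10790* (2.35) were higher in each MIA library than in any saline library. *Rnu11*, a spliceosomal RNA that poly(A) libraries capture poorly, was listed at 6.64, 0 and 5.07 TPM in Saline + MG-REP and 24.3, 22.7 and 29.2 TPM in MIA + MG-REP (log2 fold change 2.87 ± 0.96, adjusted p = 0.034), and without Saline + MG-REP library 2, where it was at 0, the log2 fold change was 1.95 and the adjusted p 0.18.

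*Tmsb4x* and *Actb* were among the 8 most abundant called transcripts. *Tmsb4x*, which encodes the actin-binding peptide thymosin beta 4, was at 42582, 24699 and 24643 TPM in Saline + MG-REP and 12754, 12748 and 12601 TPM in MIA + MG-REP (-1.22 ± 0.21). *Actb*, the cytoplasmic actin, was at 9577, 5833 and 5488 TPM in Saline + MG-REP and 4091, 4584 and 3956 TPM in MIA + MG-REP (-0.68 ± 0.16). When the libraries were rescaled by median ratios, the median over all transcripts moved from 0.12 to 0.05, the mitosis list was called lower in 24 of 24, and the homeostatic list was called higher in 9 of 18.

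The genes of cellular protrusions and neuritogenesis, a list that the study chose on libraries of this series, showed few differences. Of 49 transcripts, 2 were called higher and 2 lower (1 and 2 without Saline + MG-REP library 1), a share below that of all transcripts. Those called higher were the ephrin *Efnb1* (1.34) and the endothelin receptor *Ednra* (1.06), and those called lower were *Areg* and *Plau*, given above. Of 26 transcripts of synaptic transmission, none was called in either direction by limma, and none without that library. With an unadjusted p under 0.05 there were 2 with all 6 libraries and 0 without library 1. The smallest p was that of the receptor subunit *Gabbr1*, at 44., 154 and 167 TPM in Saline + MG-REP and 215, 158 and 249.1 TPM in MIA + MG-REP (log2 fold change 0.96 ± 0.41, adjusted p = 0.1). The list's median was 0.24 with all 6 libraries and -0.16 without Saline + MG-REP library 1, which held the lowest summed level of these transcripts, 527 TPM against 1115 to 1939 TPM in the other 5. *Ednra* (0.84) was no longer called without library 1 (log2 fold change without it).

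Markers of other cell types moved with the comparison in part. Of 11 endothelial transcripts, 4 were called higher and none lower, namely *Itm2a* (1.38), the tight junction genes *Cldn5* (1.24) and *Ocln* (1.13) and the receptor *Flt1* (1.16), and none was called without Saline + MG-REP library 1. *Cldn5* was at 165, 362 and 277 TPM in Saline + MG-REP and 673, 630.4 and 512 TPM in MIA + MG-REP, so that each MIA library exceeded each saline library. Of 9 NK and T cell transcripts, 4 low ones were called higher, *Il2rb* (0.70), *Gzma* (1.79), *Prf1* (0.98) and *Gzmb* (1.39), and without library 1 none was called higher and 1 lower. The summed level of these 9 did not follow the 4. It was 40.55, 278.5 and 300 TPM in Saline + MG-REP and 114, 125 and 128 TPM in MIA + MG-REP. The T cell genes *Cd3e*, *Cd8a* and *Lck* had no value. Of 8 border macrophage transcripts, 1 was called higher, *Cd209f*, and 2 lower, with and without library 1. Their summed level did not overlap between the groups. It was 1525, 862 and 882 TPM in Saline + MG-REP and 314, 438.5 and 361 TPM in MIA + MG-REP, against 443 to 621 TPM in the control-chow libraries. *Cd209f* was at 0.43, 0.25 and 0.74 TPM in Saline + MG-REP and 6.15, 11.3 and 6.78 TPM in MIA + MG-REP. *Siglec1*, a lectin that interferon also induces, was at 204, 174 and 193 TPM in Saline + MG-REP and 40.9, 29.6 and 24.8 TPM in MIA + MG-REP (-2.57 ± 0.27). The chemokine *Pf4* was at 901, 422 and 408 TPM in Saline + MG-REP and 69.6, 92.04 and 79.6 TPM in MIA + MG-REP (-2.73 ± 0.34). The mannose receptor *Mrc1*, which defines border macrophages, was at 241, 159.9 and 158 TPM in Saline + MG-REP and 102, 152 and 120.5 TPM in MIA + MG-REP (log2 fold change -0.57 ± 0.22, adjusted p = 0.072). Without library 1 the threshold was missed by *Itm2a* (1.05), *Cldn5* (0.92), *Ocln* (0.82), *Flt1* (0.92), *Il2rb* (0.55), *Gzma* (1.77), *Prf1* (0.94) and *Gzmb* (1.27), with the log2 fold change of that fit in parentheses.

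Of 15 monocyte and neutrophil transcripts, 1 was called lower, the monocyte chemokine receptor *Ccr2*, at 60.6, 64.1 and 49.9 TPM in Saline + MG-REP and 24.7, 29.8 and 20.8 TPM in MIA + MG-REP (-1.19 ± 0.28). The granule enzymes *Elane*, at 0, 36.7 and 3.87 TPM, and *Mpo*, at 0.19, 35.7 and 3.44 TPM, were high in Saline + MG-REP library 2 and at 0.87 TPM or below in the MIA libraries, and both passed the threshold only without library 1. Of 8 dendritic cell transcripts, 2 were called higher, *Zbtb46* (0.96) and *Cd209a* (1.04), and 1 lower, *Bst2*. No transcript on the lists of neurons, astrocytes, oligodendrocyte lineage, choroid plexus, B cells or erythroid cells was called by limma, with or without library 1. At an unadjusted p under 0.05 there was 1 oligodendroglial and 1 B cell transcript with all 6 libraries and 0 without library 1, and 0 on the other lists in either fit. The medians of the neuronal, astrocytic and oligodendroglial lists were 0.29, 0.17 and 0.22 with all libraries and changed sign without library 1, to -0.06, -0.22 and -0.18. Examples are the neuronal *Slc17a7* (log2 fold change 0.45 ± 0.48, adjusted p = 0.57), the astrocytic *Gja1* (log2 fold change 0.48 ± 0.49, adjusted p = 0.55) and the choroid plexus gene *Ttr* (log2 fold change 0.93 ± 0.69, adjusted p = 0.38). The part of these other cells in the differences above was not tested. *Cd209a* (0.86) was no longer called without library 1 (log2 fold change without it).

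The 5 modules into which the authors clustered the transcripts, using these same libraries, divided along the comparison, which is a description and no independent evidence. In the repopulated adult module, 463 of 1134 transcripts were called lower and 1 higher. In the immature module, 1099 of 4681 were called lower and 73 higher. The adult module had 566 of 3276 higher and 1 lower, the juvenile module 559 of 2318 higher and 6 lower, and the MIA immature module 354 of 2816 higher and 2 lower. Without Saline + MG-REP library 1 the counts higher fell to 240 in the adult and 129 in the MIA immature module, and the counts lower to 376 in the repopulated adult and 647 in the immature module.

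With control chow, no transcript was called between MIA + CTRL and Saline + CTRL by limma (0% of 14225). An unadjusted p under 0.05 was found for 256, fewer than the 711 expected at that threshold if no transcript differed. The difference between the MIA effect after repopulation and that under control chow was itself called for 1496 transcripts (10.5% of all), 629 of them in the positive direction (4.42%) and 867 in the negative (6.09%), and 1463 of the 1496 were also called in the repopulated comparison. The difference includes the repopulated effect, so that this overlap is in part built in. The repopulated and control-chow effects themselves share no library. Without Saline + MG-REP library 1, 963 transcripts were called in this difference. In the positive direction the genes with the smallest p were *Fam102b* (1.67 ± 0.15, adjusted p = 1.1e-07), *Ecscr* (2.66 ± 0.28, adjusted p = 4.9e-07), *Gm3636* (2.37 ± 0.29, adjusted p = 4.9e-06) and *Mlph* (3.70 ± 0.48, adjusted p = 1.2e-05), each as the log2 difference of the 2 effects with its standard error. In the negative direction they were *Cdca3* (-4.71 ± 0.32, adjusted p = 2.4e-09), *Mki67* (-4.89 ± 0.34, adjusted p = 3.1e-09), *Ccnb2* (-4.79 ± 0.35, adjusted p = 4.8e-09) and *Gdf3* (-3.81 ± 0.28, adjusted p = 5.9e-09). *Gdf3*, a ligand of the TGF-beta superfamily, was at 24.6, 23.8 and 20.9 TPM in Saline + MG-REP and 0.5, 0.81 and 0.92 TPM in MIA + MG-REP. Its control-chow means were 0.17 TPM in Saline + CTRL and 0.21 TPM in MIA + CTRL. *Fam102b* was at 118, 116 and 109 TPM in Saline + MG-REP and 311, 328 and 304 TPM in MIA + MG-REP. *Gm3636* was at 0.97, 0.95 and 0.79 TPM in Saline + MG-REP and 7.0, 9.8 and 5.07 TPM in MIA + MG-REP. In these 3 genes no library of one repopulated group reached the other.

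**Figure D5:**
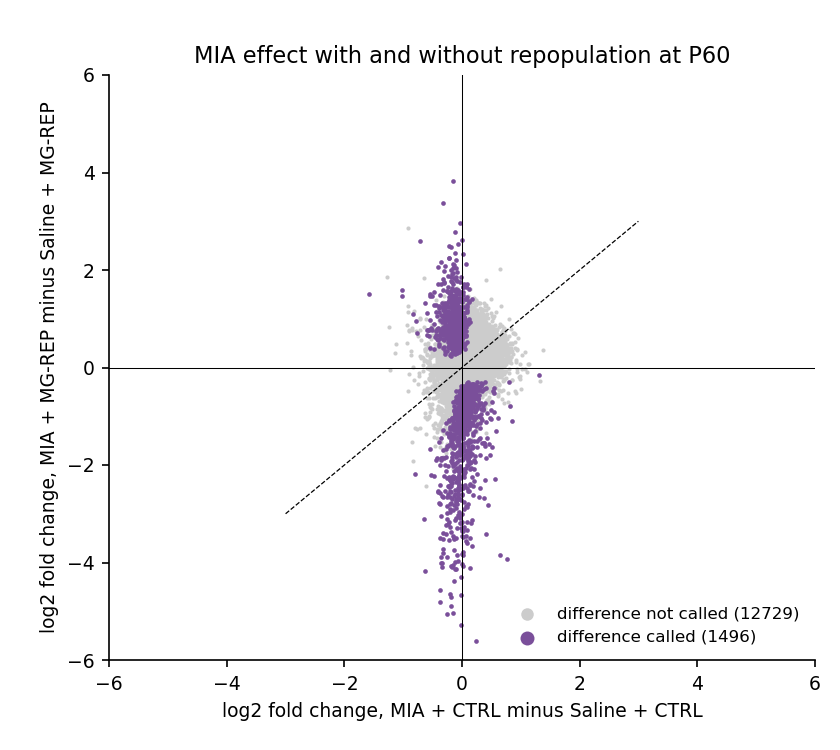
Log2 fold change between MIA + MG-REP and Saline + MG-REP (vertical) against that between MIA + CTRL and Saline + CTRL (horizontal) for 14225 transcripts, with equal axes and a dashed line of equality. The repopulated comparison spreads from -5.61 to 3.83, the control-chow comparison stays within 1.58 of 0, and the 1496 transcripts called for the difference are purple.

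Beside the control-chow libraries, the 2 repopulated groups took different positions. The mean of MIA + MG-REP lay within the range of the 6 control-chow libraries for 74.0% of the 1553 transcripts called higher and 68.9% of the 1571 called lower, and for 82.6% of all 14225. The mean of Saline + MG-REP lay within it for 3.74% of those called higher and 3.12% of those called lower, and for 49.9% of all. Transcripts called between the groups had to have at least 1 group away from the other, so that low shares in one group are built into the choice, while the choice does not say which group lies outside.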

How the data were processed

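Offspring of dams given poly(I:C) or saline received PLX5622 chow after weaning and then control chow, and CD11b+ cells of whole brains were isolated with magnetic beads at P60. Poly(A) RNA was sequenced in non-stranded libraries, so that reads of overlapping genes on opposite strands cannot be told apart. The submitters' processing notes name mm10 and featureCounts. Alignment and counting were done by the authors in Rsubread with gene models from UCSC, and features of at least 2 CPM in at least 3 libraries were retained. The values deposited by the authors are TPM per RefSeq transcript, beside the authors' module of each transcript, and the formula behind the TPM is not given in the sources used here. TPM carry no read number. Depth, as reads on the listed transcripts of known length, was estimated from the steps between low values. In the repopulated libraries 72.8% to 76.1% of these values lay within 0.2 of a whole read, and 1 read on 1 kb was worth 0.239 to 0.273 TPM. Replicates were those of the labels.

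Log2(TPM + 1) of all 30 libraries was fitted with limma 3.58.1 in R 4.3.3, with 10 groups and a mean-variance trend. Tests were two-sided, with Benjamini-Hochberg adjustment over 14225 transcripts, and each p given for a gene is of this kind. A fold change on this scale understates changes of low transcripts. The script was tested on simulated data. The members and lists were chosen with earlier results of these data known. Genes were named by 5 rules. These were the 12 largest rises and falls with a mean of at least 5 TPM, the 4 smallest p of each list, the 4 smallest p in each direction of the difference between the 2 MIA effects, the marker genes in the study's text, and the 8 called transcripts with the highest mean. Members that complete a count of 5 or fewer, *Cdk1*, *Cdc20* and *Kif11*, and other well-known members were named after their values were seen. A few genes that these rules name are not reported here. Where a gene has several transcripts, that with the smallest p is given. A value given for a gene does not cover transcripts of it that were not listed. Coordinates and promoters are from RefSeq (GRCm38.p6), to which 14124 transcripts (99.3%) were matched. The alternatives were scaling, pseudocount, a filter, the libraries in the fit, weights and single libraries left out.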

Additional observations from a re-analysis of the deposited data

Results flagged for a closer look

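The MIA effect differed between repopulated and control-chow microglia in 1496 transcripts, where the difference of the 2 effects was itself tested by limma at an adjusted p under 0.05 (10.5% of all transcripts). The sex of the repopulated and the control-chow libraries differed, as given above, and its part in these differences was not tested. The named genes among them are given with the difference of the 2 log2 fold changes, repopulated minus control chow, in parentheses. A negative value means that MIA went with a lower level, relative to saline, after repopulation than under control chow.

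All genes of cell division and DNA replication in this set had negative values, namely *Mki67* (-4.89), *Ube2c* (-5.26), *Ccnb2* (-4.79), *Cdca3* (-4.71), *Top2a* (-4.42), *Ccna2* (-4.45), *Cdca8* (-4.65), *Bub1b* (-3.63), *Pbk* (-4.19), *Spc24* (-4.25), *Cdk1* (-3.52), *Cdc20* (-3.41), *Kif11* (-3.76), *Rrm2* (-4.29), *Rrm1* (-1.99), *Mcm2* (-2.39), *Pole* (-2.58) and *2810417H13Rik* (-4.53). The interferon-stimulated genes were *Cxcl10* (-3.12), *Ifi27l2a* (-2.90), *Bst2* (-1.66), *Ifi204* (-1.85) and *Siglec1* (-2.21). Cytokines, chemokines, receptors and NF-kB genes with negative values were *Il12b* (-5.85), *Il1b* (-2.76), *Il23a* (-3.01), *Areg* (-3.26), *Cxcl1* (-4.50), *Cxcl2* (-3.36), *Cxcl3* (-3.84), *Tnip3* (-2.09), *Sod2* (-0.70), *Tlr2* (-1.72), *Cd14* (-1.31) and *Tlr8* (-0.96), and those with positive values were *Il27* (2.07), *Il16* (1.10), *Ccl24* (1.62), *Ccl6* (1.03), *Map3k14* (0.95) and *Tlr5* (2.20). Further myeloid genes with negative values were *Apoe* (-2.27), *Gpnmb* (-2.11), *Cstb* (-1.11), *Spp1* (-1.12), *Lyz2* (-2.19), *Ch25h* (-3.31), *Plin2* (-1.83), *Soat1* (-0.60), *Lgals1* (-2.99), *Itga4* (-2.41), *Plau* (-1.63), *Ctsc* (-1.39), *Gusb* (-1.20), *Cfp* (-2.59), *Nt5e* (-3.20), *Csf2ra* (-0.86), *Bcl6* (-0.89), *Pf4* (-2.62) and *Gdf3* (-3.81).

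Positive values were found for the homeostatic, regulatory and MHC class II genes *P2ry12* (2.08), *P2ry13* (1.83), *Sall1* (2.47), *Sall3* (1.60), *Cst3* (1.80), *Tmem119* (1.20), *Cx3cr1* (1.29), *Adora3* (1.71), *Lag3* (2.71), *Cd80* (0.83), *Sirpa* (0.97), *Siglecf* (1.20), *Smad3* (0.60), *Smad7* (0.94), *H2-Oa* (1.97), *H2-Ob* (1.51) and *H2-DMb1* (1.07). The genes *Upk1b* (3.99), *Mlph* (3.70), *Gp9* (2.99), *Atp8a2* (2.89), *Csmd3* (2.61), *Gpr165* (2.60), *Cd209f* (3.30), *Ecscr* (2.66), *P3h2* (2.30), *Gm10790* (2.47), *Fam102b* (1.67), *Gm3636* (2.37), *Efnb1* (1.34), *Itgb3* (1.96), *Adamts1* (1.14), *Ctsf* (0.90), *Ctsl* (1.11) and *C2* (1.16) were positive as well. Small negative values were those of *Rplp0* (-1.04), *Rps2* (-1.09), *Rpl18* (-0.82), *Rpsa* (-1.03), *Cox5a* (-1.15), *Sdhb* (-0.46), *Gapdh* (-1.33), *Gpi1* (-0.92), *Pgam1* (-0.96) and *Tmsb4x* (-1.21). The immediate early genes *Rhob* (1.69), *Ier5* (1.35) and *Junb* (0.98) were positive.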

How the results depend on the processing

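The number of transcripts called between MIA + MG-REP and Saline + MG-REP was 3124 in the reported fit. It was 3180 with a pseudocount of 0.1, 3106 with median-ratio scaling, 2908 after quantile normalization, 3095 with the 12 P60 libraries alone, 2314 with the 6 repopulated libraries alone, 3082 without a trend and 4461 with library weights, which gave Saline + MG-REP library 1 a weight of 0.197 against 1.25 to 2.21 for the other repopulated libraries. With weights, 2481 were called higher, and the difference from the control-chow effect was called for 3376 transcripts (1981 in the positive direction, 1395 in the negative). Leaving out 1 library gave 1731 to 3141 calls, of which 701 to 1559 were higher and 1030 to 1624 lower. The lowest counts were those without Saline + MG-REP library 1, and without MIA + MG-REP library 1 or 2 the number called higher was 996 or 1015. For the difference between the 2 effects, leaving out 1 library gave 963 to 1631 calls, with 346 to 693 in the positive direction. That direction had 346 without Saline + MG-REP library 1, 374 without MIA + MG-REP library 2, 405 without Saline + CTRL library 1 and 412 without Saline + CTRL library 3. The cause was not tested, beyond the smaller number of libraries in each.

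With the replicate number as a block, 3272 transcripts were called, and 1495 in the difference between the effects. Deviations of same-numbered Saline + MG-REP and MIA + MG-REP libraries from their group means correlated across transcripts at -0.15, -0.12 and 0.37. With 3 libraries behind each mean, these values cannot tell whether same-numbered libraries share a litter or a preparation, which was not tested. Of the 160 genes named, 143 were called, 103 of them under every alternative run and 105 under every one but the fit without Saline + MG-REP library 1. Of the 143, leaving out Saline + MG-REP library 1, 2 or 3 cost 29, 6 or 12 genes their call, and leaving out MIA + MG-REP library 1, 2 or 3 cost 16, 21 or 21, among them the endothelial markers *Ocln* and *Flt1* with each MIA library, and *Cd86*, *Ltb*, *Tgfb2*, *Serping1* and *Fos*. Median-ratio scaling cost 8 genes their call, quantile normalization 10, the block 2 (*Ccl9* and *Rnu11*) and the 6 repopulated libraries alone 14, *Lag3* and *Junb* included. No gene called in the reported fit changed sign under an alternative run, and of the 17 not called, 5 did (*Ctsd*, *Gja1*, *Slc17a7*, *Tgfb1* and *Xist*). The share called higher was 49.7% in the reported fit, 39.8% with median-ratio scaling, 51.0% with the block, 53.9% with the 12 P60 libraries and 55.6% with weights, so that the larger direction depends on the setting. Depth limits the low transcripts, since 1 read on 1 kb was worth up to 0.273 TPM.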
